A study of Rattus norvegicus with 8 samples.

Results

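The genes described here are 10 that are used as markers of monocytes and macrophages: the Fc receptor genes Fcgr3a, Fcgr2a and Fcgr1a, the C-type lectin genes Clec4a3 and Clec4a1, the growth factor receptor gene Csf1r, the scavenger receptor gene Cd163, and the genes Cd68, Cybb and Mpeg1 of the endosomal and killing machinery. They were chosen by their symbols, with their wide spread and shared pattern over these same 8 arrays already known, so their spread, their correlation and their diet difference are given as descriptions. A probe set, the group of short probes that measures 1 transcript on the array, was taken where the platform annotation gave it exactly 1 of these symbols. That rule found 11 probe sets of 9 genes among 31042 tested probe sets. Fcgr2a had none of its own, because both probe sets that name it also name Fcgr2al1, and no value is given for it. Cybb and Mpeg1 had more than 1 probe set each, and every probe set was kept.

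Blood was taken from male Wistar rats bought at 7 weeks of age, acclimated for 1 week on a normal diet and then kept for 8 weeks either on a high-fat diet containing 1% mulberry leaf powder (4 arrays) or on the high-fat diet alone (4 arrays). It was drawn on day 56 after a night without food, and its total RNA was hybridized to an Affymetrix rat expression array. Each diet had 10 rats, and the labels name the arrays biological replicates without saying whether an array holds 1 rat or a pool, so the errors below measure the spread between these arrays. The deposited log2 values differ very little between arrays (median SD of a probe set 5.31e-06). Each probe set is therefore also given in SD units, its distance from its own mean divided by its own SD over the 8 arrays and a difference is mulberry minus high-fat. High-fat replicate 4 stood apart, being the highest array in 235 of the 500 probe sets of widest spread, so the main differences and correlations are also given without it.

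Monocytes are circulating phagocytes that leave the blood to become macrophages, and their survival depends on the CSF1 receptor. They sense antibody-coated particles through Fc gamma receptors, which signal through an adaptor chain, take particles into phagosomes, and attack them there with oxidants made by the NADPH oxidase and with pore-forming proteins. Blood holds classical monocytes, which enter inflamed tissue, and nonclassical monocytes, which patrol the vessel wall and, in mouse, carry the receptor encoded by Fcgr4. RefSeq lists Fcgr4 and CD16-2 as other names of rat Fcgr3a, and also lists Fcgr3a as an older name of Fcgr2a, so the gene meant here is the one with RefSeq gene number 304966.

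Start regions of 300 bases were at hand in RefSeq (assembly GRCr8) for 9 of the 10 genes, in 10 sequences, Fcgr2a having 2 and Fcgr1a none. They were searched on both strands for GAGGAA, the core of the sequence bound by PU.1, a transcription factor of the myeloid lineage. On the opposite strand this reads TTCCTC. The letters were found in 7 of the 10 sequences (70%), against 9239 of 33469 start regions of all genes (27.6%). Clec4a1 held 3 copies, Cd68 and Csf1r 2 each, and Fcgr3a, Clec4a3 and Cybb 1 each, while 1 of the Fcgr2a sequences held 2 and the other 0. In Fcgr3a the copy began at base -54 from the transcript start, in Cybb at -14, and in Clec4a3 at -245. A match of 6 letters is a description of the sequence, and binding was not measured. The sequences that follow, 5′ to 3′ with the searched letters in capitals, belong to 4 genes of the shared pattern described next (Fcgr3a, chr13:85782386-85782685 (plus strand); Clec4a3, chr4:157886508-157886807 (plus strand); Clec4a1, chr4:157845561-157845860 (plus strand); Mpeg1, chr1:218876644-218876943 (plus strand)) and Cd163 (chr4:158770524-158770823 (plus strand)), which did not follow it. Mpeg1 and Cd163 hold no copy in this window.
Fcgr3a: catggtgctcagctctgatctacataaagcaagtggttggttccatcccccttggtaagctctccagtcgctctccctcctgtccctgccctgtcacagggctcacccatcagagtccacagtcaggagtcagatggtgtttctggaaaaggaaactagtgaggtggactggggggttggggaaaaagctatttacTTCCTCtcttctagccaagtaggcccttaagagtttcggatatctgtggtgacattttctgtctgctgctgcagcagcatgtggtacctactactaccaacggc
Clec4a3: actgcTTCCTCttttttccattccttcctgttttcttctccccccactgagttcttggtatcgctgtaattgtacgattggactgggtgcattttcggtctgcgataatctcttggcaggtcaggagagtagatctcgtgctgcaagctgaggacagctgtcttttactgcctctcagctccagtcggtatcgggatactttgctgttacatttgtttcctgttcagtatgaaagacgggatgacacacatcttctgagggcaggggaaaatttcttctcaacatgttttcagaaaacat
Clec4a1: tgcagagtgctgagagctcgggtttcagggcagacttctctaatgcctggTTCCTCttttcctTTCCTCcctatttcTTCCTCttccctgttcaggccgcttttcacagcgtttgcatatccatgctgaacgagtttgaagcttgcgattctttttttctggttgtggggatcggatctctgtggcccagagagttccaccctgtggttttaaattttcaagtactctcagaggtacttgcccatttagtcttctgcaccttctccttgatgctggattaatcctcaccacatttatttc
Mpeg1: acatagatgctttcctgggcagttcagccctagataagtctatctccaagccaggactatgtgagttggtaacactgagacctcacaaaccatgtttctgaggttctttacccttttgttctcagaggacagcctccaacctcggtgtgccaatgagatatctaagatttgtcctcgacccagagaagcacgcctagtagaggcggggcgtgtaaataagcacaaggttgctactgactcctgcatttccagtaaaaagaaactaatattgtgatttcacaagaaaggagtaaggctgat
Cd163: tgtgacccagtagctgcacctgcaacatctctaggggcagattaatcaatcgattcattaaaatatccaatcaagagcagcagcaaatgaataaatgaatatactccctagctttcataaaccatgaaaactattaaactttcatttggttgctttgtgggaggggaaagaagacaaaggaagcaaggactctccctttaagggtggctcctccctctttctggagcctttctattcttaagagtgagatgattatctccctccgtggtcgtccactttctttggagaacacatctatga

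Fcgr3a, an activating receptor for IgG, had the widest spread of the members, the 6th largest SD of all tested probe sets (0.0359, or 6760 times the median). Its deposited values were 7.165, 7.125, 7.101 and 7.164 in mulberry replicates 1 to 4, against 7.133, 7.130, 7.118 and 7.215 in high-fat replicates 1 to 4. High-fat replicate 4 stood above every other array and mulberry replicate 3 below every other array, and the diets overlapped, with 3 of the 4 mulberry arrays inside the high-fat range. In SD units the mean was -0.138 ± 0.871 in the mulberry arrays and 0.138 ± 1.23 in the high-fat arrays (SD, n = 4 each). In whole blood, fewer cells of a type and less RNA per cell cannot be told apart. Fcgr1a, the high-affinity IgG receptor, spread far less on the deposited scale (SD 0.000272, rank 523), with 0.84, -0.66, -1.23 and 0.84 SD units in the mulberry arrays, against -0.31, -1.01, -0.06 and 1.59 in the high-fat arrays. Mulberry replicates 1 and 4 were again both high, and high-fat replicate 4 was again the highest array.

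**Figure D1:**
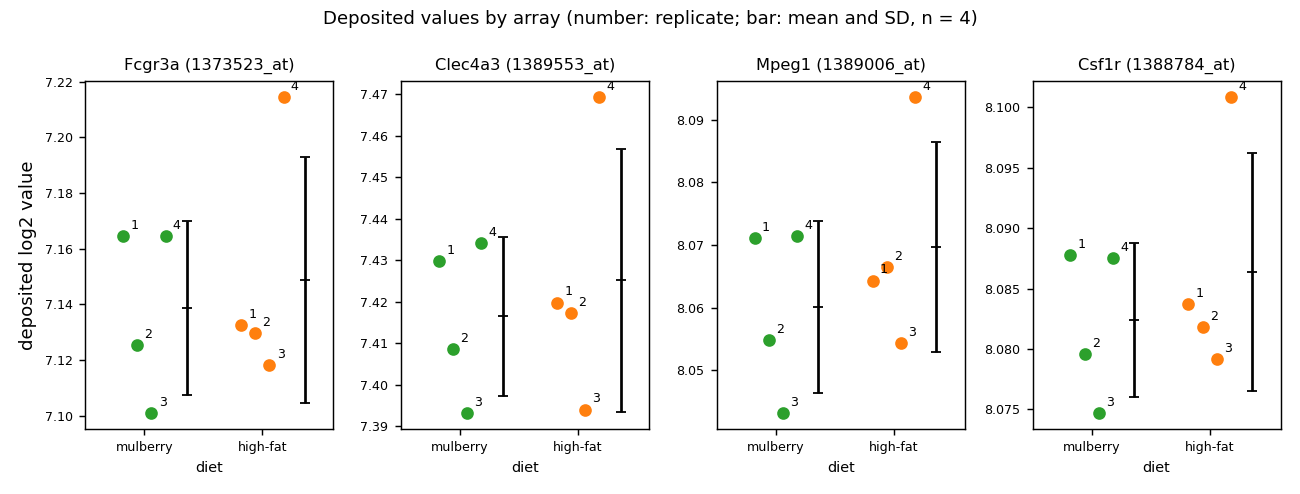
Deposited log2 values (vertical axis, a separate scale in each panel) of Fcgr3a, Clec4a3, Mpeg1 (probe set 1389006_at) and Csf1r by diet, 1 point an array with its replicate number, and the mean with the SD of 4 arrays as a bar. High-fat replicate 4 is the highest array in all 4 panels (7.215 for Fcgr3a) and mulberry replicate 3 the lowest (7.101 for Fcgr3a).

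Clec4a3 and Clec4a1, also called Dcir3 and Dcir4, encode C-type lectin receptors and both lie on chromosome 4 in RefSeq. The Clec4a3 probe set had the 8th largest SD (0.0247), with 7.430, 7.409, 7.393 and 7.434 in mulberry replicates 1 to 4, against 7.420, 7.417, 7.394 and 7.469 in high-fat replicates 1 to 4. Mulberry replicate 3 and high-fat replicate 3 were low together, and high-fat replicate 4 was high alone. Clec4a1 varied far less on the deposited scale (SD 0.000223, rank 608), and in SD units its arrays stood at 0.18, -0.64, -0.77 and 0.21 with mulberry, against 0.24, -0.64, -0.78 and 2.20 with high-fat diet. All 4 mulberry arrays of Clec4a1 lay inside the high-fat range.

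Csf1r, the receptor for CSF1 and IL-34, had the 31st largest SD (0.00796). Its values were 8.088, 8.080, 8.075 and 8.088 in mulberry replicates 1 to 4, against 8.084, 8.082, 8.079 and 8.101 in high-fat replicates 1 to 4. Its 8 arrays stood in the same rank order as those of Fcgr3a (Spearman rho 1). Cd163, a receptor that clears haemoglobin bound to haptoglobin and, as the ED2 antigen, a marker of rat tissue macrophages, did not share this order. It had an SD of 4.21e-06, rank 18073 and 0.793 times the median of all probe sets, with -0.50, 0.86, 0.52 and -1.26 SD units in the mulberry arrays, against 0.92, -1.32, 1.18 and -0.40 in the high-fat arrays. For Cd163, high-fat replicate 3 was the highest array and high-fat replicate 2 the lowest.

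Among the genes of the phagosome, Cybb, the catalytic subunit of the NADPH oxidase, had probe sets that shared a pattern. The brighter, 1379344_at, gave 0.17, -0.67, -1.24 and 0.31 SD units with mulberry, against 0.31, 0.09, -0.94 and 1.97 with high-fat diet, and 1369181_at correlated with it at r = 0.96 over the 8 arrays. Cd68, a glycoprotein of endosomes and lysosomes, ranged from -0.96 to 0.06 SD units in the mulberry arrays, against -0.52 to 2.27 in the high-fat arrays. Mpeg1, which encodes the pore-forming perforin-2, had probe sets that disagreed. Probe set 1389006_at had the 13th largest SD (0.0151), with 8.071, 8.055, 8.043 and 8.071 in mulberry replicates 1 to 4, against 8.064, 8.066, 8.054 and 8.094 in high-fat replicates 1 to 4. The dimmer 1369427_at had an SD of 4.05e-06 (rank 18492), was highest in high-fat replicate 3 and lowest in mulberry replicate 4, and correlated with the other at r = 0.166.

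**Figure D2:**
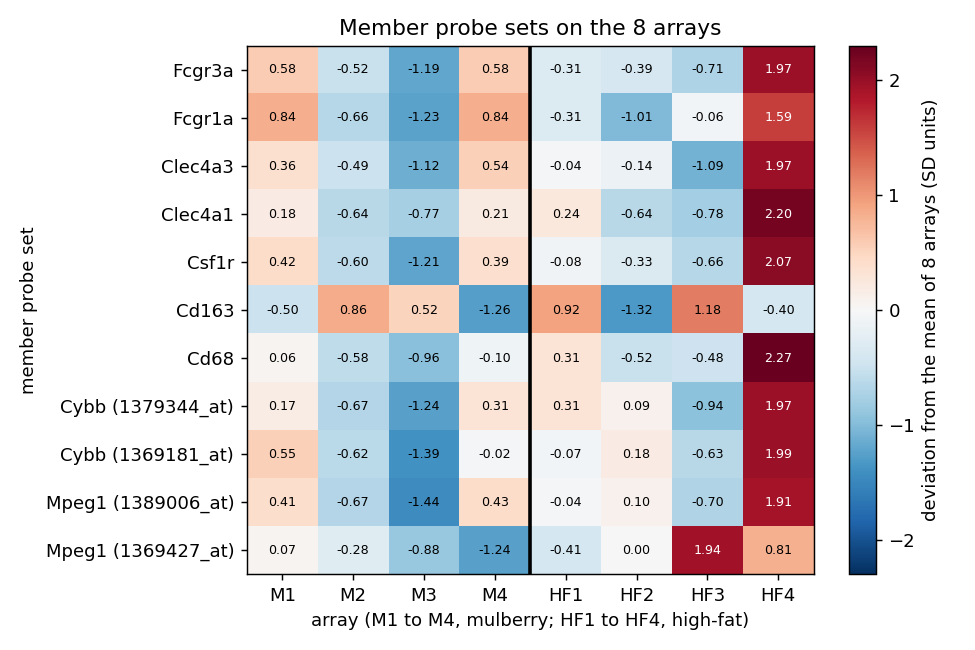
Deviation of each of the 11 member probe sets (rows) from its mean over the 8 arrays, in SD units, with mulberry arrays M1 to M4 left of the line and high-fat arrays HF1 to HF4 right of it. High-fat replicate 4 is the highest array in 9 of the 11 rows, and Cd163 and Mpeg1 probe set 1369427_at are the other 2.

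High-fat replicate 4 was the highest array in 9 of the 11 member probe sets, and mulberry replicate 3 the lowest in 8. Over all 31042 tested probe sets, high-fat replicate 4 was the highest in 14.4% and mulberry replicate 3 the lowest in 10.8%. Among the 500 probe sets of widest spread, which include 7 of the member probe sets, these shares were 47% and 34.8%. The member probe sets that did not peak in high-fat replicate 4 were those with an SD below the median of the whole array, Cd163 and Mpeg1 1369427_at.

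With 1 probe set a gene (the one of the highest mean), the 36 pairs among the 9 measured genes had a median Pearson r of 0.915 and a median Spearman rho of 0.833 over the 8 arrays. Of these pairs, 22 had an r above 0.9. The closest pair was Fcgr3a with Csf1r (r = 0.99), and Fcgr3a with Clec4a3 stood at 0.976 and with Mpeg1 1389006_at at 0.967. Every pair with Cd163 was negative, from -0.547 with Mpeg1 1389006_at to -0.2 with Cd68, and without Cd163 the other 28 pairs ran from 0.769 to 0.99. The Cd163 probe set has a mean level of 6.01 and is left out when the dimmer probe sets are dropped. Its negative r values rest on very small differences (SD 4.21e-06, below the median of the array). The points share 8 arrays and their processing, and no p is given because the members were chosen with this pattern known.

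The members were chosen with their pattern over these arrays known, so leaving arrays out describes the correlation and is no independent support. Without high-fat replicate 4 the median r was 0.819 (10 pairs above 0.9) and the median Spearman rho 0.75 (8 pairs above 0.9). Fcgr3a with Csf1r still had an r of 0.978, and Cd68 with Fcgr3a had 0.72, against 0.904 with all arrays. Without the 2 arrays farthest from the median of the mean member score, high-fat replicate 4 and mulberry replicate 3, the median was 0.71 over 6 arrays. Taken as deviations from each diet's mean, the values had a median r of 0.928, so the pattern ran within the diets. Mulberry replicates 1 and 4 stood at 0.28 and 0.22 on the mean member score and replicates 2 and 3 at -0.44 and -0.96, against 0.11, -0.46, -0.47 and 1.73 in high-fat replicates 1 to 4.

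**Figure D3:**
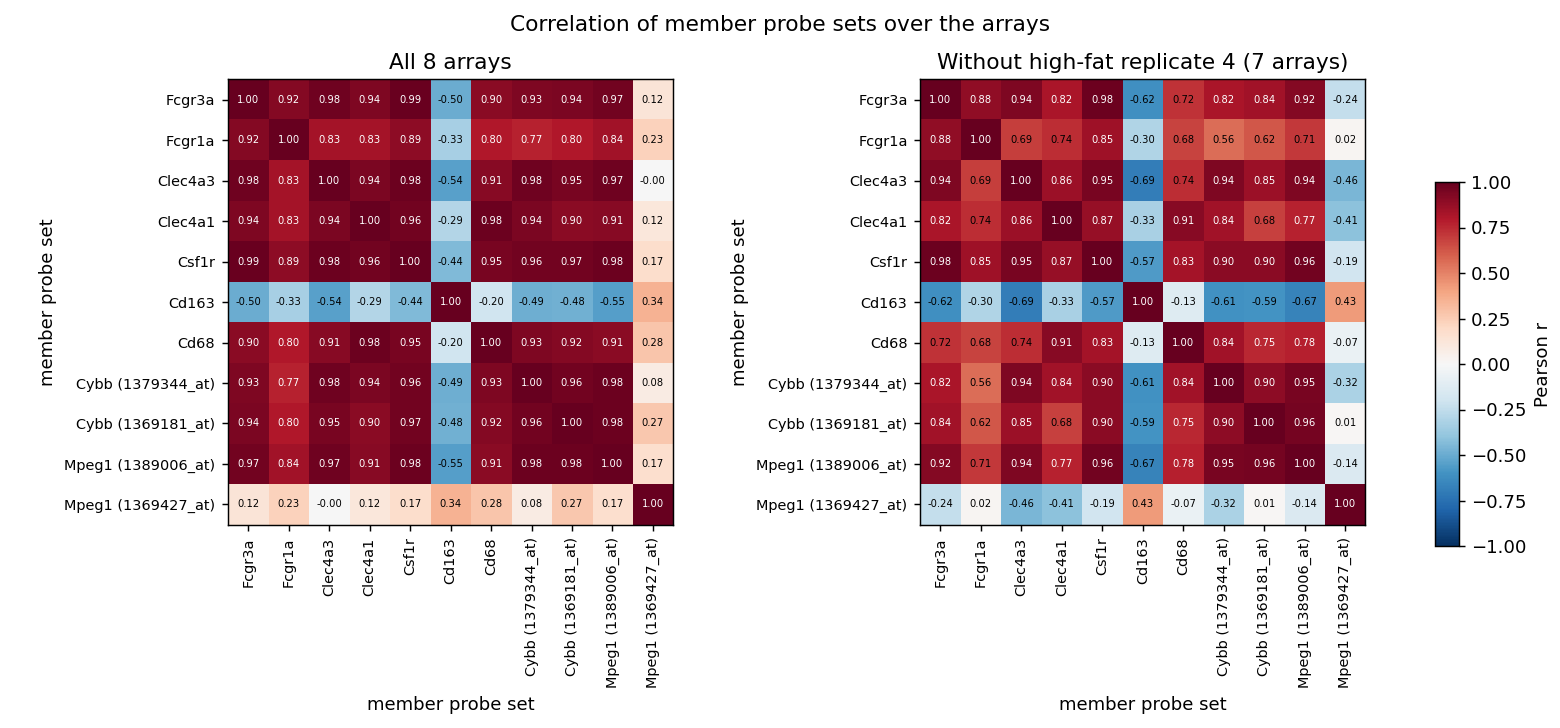
Pearson r between each pair of member probe sets over all 8 arrays (left) and without high-fat replicate 4 (right). Fcgr3a and Csf1r keep an r of 0.99 and 0.978, while Cd163 and Mpeg1 1369427_at stay apart from the others in both panels.

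Between the diets, 0 of the 11 member probe sets passed an adjusted p of 0.05 (limma, Benjamini-Hochberg over all probe sets), where 0% of all tested probe sets passed. At an unadjusted p under 0.05, 0 members passed, against 1352 of all probe sets (4.36%). All 11 had a lower mean in the mulberry arrays, against 47.3% of all tested probe sets, with a median difference of -0.516 SD units, against 0.056 over all. Fcgr3a differed by -0.277 SD units (95% confidence interval -1.97 to 1.41, limma adjusted p = 1), Clec4a3 by -0.351 (-2.03 to 1.33) and Clec4a1 by -0.516 (-2.16 to 1.13). For Csf1r the difference was -0.50 (-2.15 to 1.15), for Cd68 -0.791 (-2.34 to 0.756) and for Cybb 1379344_at -0.715 (-2.29 to 0.863). Mpeg1 1389006_at stood at -0.636 (-2.24 to 0.971), and Mpeg1 1369427_at at -1.17 (-2.56 to 0.22). That probe set has an SD below the median of the array and was left out with the dimmer probe sets, and its difference was 1.07 after median centring and -0.707 after quantile normalization. Cd163 was likewise below that median and left out, and its difference was 1.08 after median centring and -1.17 after quantile normalization. Each interval covers 0 and leaves room for a difference of more than 1 SD unit.

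The common lower mean depended on high-fat replicate 4. Without it, 6 of the 11 had a lower mean, against 47.8% of all probe sets, and the difference turned to 0.512 for Fcgr3a, 0.493 for Fcgr1a, 0.377 for Clec4a3, 0.268 for Clec4a1 and 0.179 for Csf1r. Cybb 1379344_at then stood at -0.27, Cd68 at -0.387 and Mpeg1 1389006_at at -0.154. The hybridization controls, transcripts added in set amounts, had a higher mean in the mulberry arrays, with overlap. These controls stood at 1.3, 0.695, 0.473 and -0.236 SD units in mulberry replicates 1 to 4, against -1.44, 0.439, -0.16 and -1.07 in high-fat replicates 1 to 4. With their mean in the model 5 of the 11 member probe sets had a lower mean and the median difference was 0.00683. Their part in the member values beyond that fit was not tested.

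**Figure D4:**
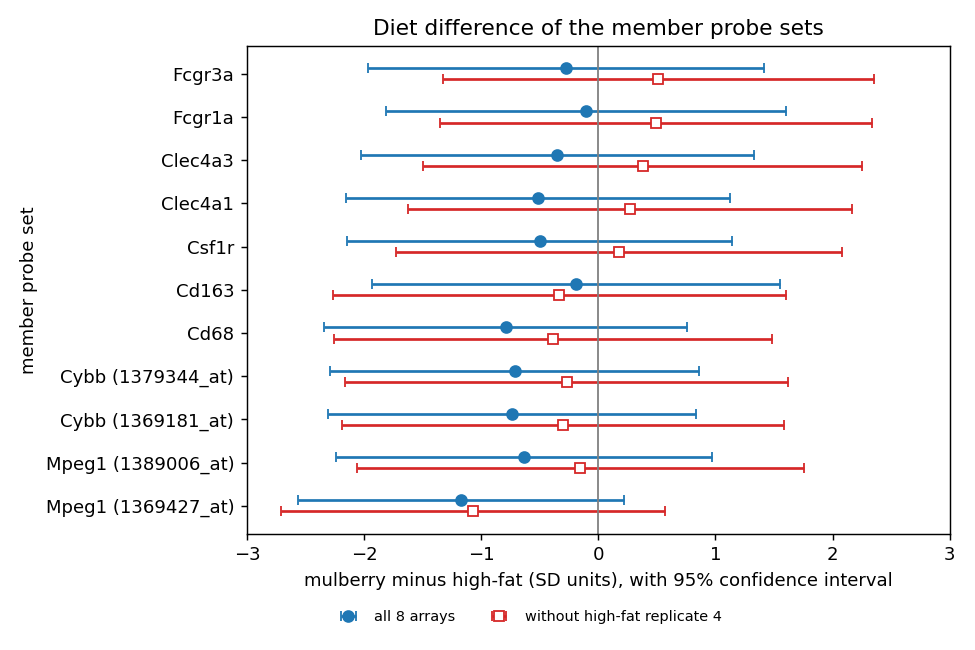
Difference between the diets for each member probe set (mulberry minus high-fat, SD units, with the 95% confidence interval of limma) with all 8 arrays (filled circles) and without high-fat replicate 4 (open squares). All intervals cover 0, and 5 genes, among them Fcgr3a (-0.277 and 0.512), have opposite signs in the 2 fits.

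To see which other genes kept the same order, 14208 further genes were ranked by their Pearson r with the mean member score over the 8 arrays. In all, 233 had an r above 0.9 (1.64%) and the median was -0.0741. The 10 most alike were Tyrobp (r = 0.988), the adaptor chain DAP12 of many myeloid receptors, Unc119 (0.988), Casp4 (0.983), an inflammatory caspase, Itgb2 (0.982), the beta-2 integrin chain of leukocytes, Ptpro (0.982), Tnfsf13 (0.981), which encodes the cytokine APRIL, Metrnl (0.98), Dram1 (0.979), Gjb2 (0.979) and Anxa5 (0.979). All 10 peaked in high-fat replicate 4, which follows from ranking against a score that is highest there (1.73). Without that array their r ran from 0.935 for Anxa5 to 0.982 for Unc119, over arrays that the ranking had also used. Nearest to Fcgr3a alone was Aif1 (r = 0.998, and 0.995 without high-fat replicate 4), which encodes the monocyte and macrophage protein IBA1, followed by Itgb2 (0.995), Hsp90b1 (0.994), an endoplasmic reticulum chaperone, Metrnl (0.991) and Plekhb2 (0.99). None of these 13 genes passed the limma test between the diets (adjusted p = 1 for each).

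Partners in Fc receptor signalling followed the members in part. Of 14 measured genes, 13 had a lower mean with mulberry (median difference -0.657 SD units), 11 peaked in high-fat replicate 4, and 0 were called. Fcgr2b, the inhibitory Fc gamma receptor, differed by -1.09 ± 0.583 (SE), Plcg2, a phospholipase downstream of Syk, by -1.01 ± 0.604 and the phosphatase gene Ptpn6 by -0.821 ± 0.645. Fcer1g, the gamma chain through which Fcgr3a signals, had an r of 0.89 with the member score. Fcgrt had one of -0.81 (both chosen after their values were seen), and the median r of the list was 0.838. Without high-fat replicate 4 the median difference of the list was -0.237, with 10 of 14 lower.

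Of 7 measured NADPH oxidase genes, 5 had a lower mean and 4 peaked in high-fat replicate 4. Rac2, the small GTPase of the phagocyte oxidase, differed by -0.934 ± 0.622 (SE), Cybc1, a chaperone of the Cybb protein, by -0.782 ± 0.652 and Rac1 by 0.757 ± 0.657. The median difference of the list was -0.26, and -0.0929 without high-fat replicate 4. Cyba, the membrane partner of Cybb, had an r of 0.96 with the member score and the cytosolic subunit gene Ncf1 one of -0.86 (both chosen after their values were seen).

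For the CSF1 receptor axis and myeloid transcription factors, 6 of 12 genes had a lower mean and 6 a higher one, with 0 called. Csf1 itself, a ligand of Csf1r, differed by 0.649 ± 0.683 (SE), Irf8, a transcription factor of monocytes and dendritic cells, by -1.27 ± 0.526 and Csf2rb by 0.88 ± 0.643. Among 7 other C-type lectin genes, 4 had a lower mean and 0 were called. Clec4a differed by -1.36 ± 0.497, Clec9a of dendritic cells by -1.26 ± 0.59 and the platelet receptor gene Clec1b by 0.681 ± 0.669, and 3 peaked in high-fat replicate 4. Without that array the median difference of the lectin list was 0.0837, against -0.417 with it, and that of the receptor axis 0.504, against 0.00335.

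Markers of the monocyte classes were mixed, with an r above 0.9 with the member score in 4 of 12 classical and 3 of 11 nonclassical genes. Below that were, for example, Ms4a7 (r = -0.65), Itgal (-0.24) and Cd36 (0.14). In all, 7 of 12 classical and 7 of 11 nonclassical markers had a lower mean with mulberry (5 and 5 without high-fat replicate 4), against 47.3% of all probe sets, and 0 were called. The median difference was -0.17 for classical and -0.475 for nonclassical markers with all arrays, and 0.156 and 0.39 without high-fat replicate 4, so both signs turned. Classical markers had a median r of 0.747 with the member score over 12 genes and nonclassical markers 0.856 over 11, and their list means gave 0.94 and 0.95 over the 8 arrays (0.94 and 0.92 without high-fat replicate 4). Lyz2, the lysozyme of myeloid cells, differed by -0.712 ± 0.664 (SE) between the diets, Ly86 by -0.867 ± 0.636, the fatty acid receptor gene Cd36 by -1.26 ± 0.531, and, among nonclassical markers, Eno3 by -1.13 ± 0.573, Ms4a7 by 1.2 ± 0.585 and Itgal by 1.17 ± 0.579. Tissue macrophage markers, the class of Cd163, ran both ways, with a median r of -0.154 over 11 genes and an r of 0.32 for the list mean (0.23 without high-fat replicate 4). Adgre1 stood at 0.96, Gpnmb at 0.82, Hmox1 at 0.76 and Mrc1 at 0.72, and all other genes of that list were negative. These were C1qa (-0.61), Slc40a1 (-0.45), C1qc (-0.29), Mertk (-0.19), C1qb (-0.18), Apoe (-0.15) and Lyve1 (-0.15). Genes here outside the 3 of largest difference were chosen after their values were seen. A lower mean was found in 5 of the 11 (3 without that array), the median difference was 0.0268 (0.686 without it), and 0 were called. Slc40a1, the iron exporter, differed by 1.57 ± 0.393 (limma unadjusted p = 0.00562, adjusted p = 1), C1qa by 1.05 ± 0.61 and Apoe by 0.751 ± 0.662.

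Markers of natural killer and cytotoxic cells also peaked in high-fat replicate 4, in 10 of 12 genes, with a list mean of 1.92 SD units there against -0.43 to 0.19 in the other high-fat arrays. The mulberry arrays lay between -0.59 and -0.13. Their list mean had an r of 0.91 with the member score and 0.55 without that array, and their part in the member values was not tested. Klrc1 differed by -1.21 ± 0.551 (SE), Klrk1 by -0.987 ± 0.61 and Xcl1 by -0.944 ± 0.62 between the diets, and the median over the list was -0.879, or -0.69 without high-fat replicate 4, with 0 called. For the other cell types, 0 genes were called, and a lower mean was found in 2 of 10 neutrophil, 3 of 6 dendritic, 6 of 7 erythroid, 9 of 9 B cell, 6 of 13 T cell and 0 of 9 platelet markers. Without high-fat replicate 4, which had the lowest platelet list mean (-1.5 SD units), 3 of the 9 platelet markers had a lower mean and their median difference was 0.225, against 0.692 with it. The T cell median was 0.176 without it, against 0.502, and the erythroid median -0.78, against -0.483. The counts without it were 1 of 10 neutrophil, 3 of 6 dendritic, 6 of 7 erythroid, 8 of 9 B cell and 6 of 13 T cell markers. The r of the list mean with the member score was 0.43 for neutrophil markers (0.51 without high-fat replicate 4), 0.28 for dendritic cells (-0.08), 0.11 for erythroid cells (0.57), 0.03 for B cells (0.15), -0.34 for T cells (-0.22) and -0.48 for platelets (0.28). The sign for dendritic cells and platelets thus turned without that array. Deposited values averaged 11.2 over the erythroid list and 8.94 over the T cell list on every array. No marker was listed at 0, and detection calls were not used here.

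**Figure D5:**
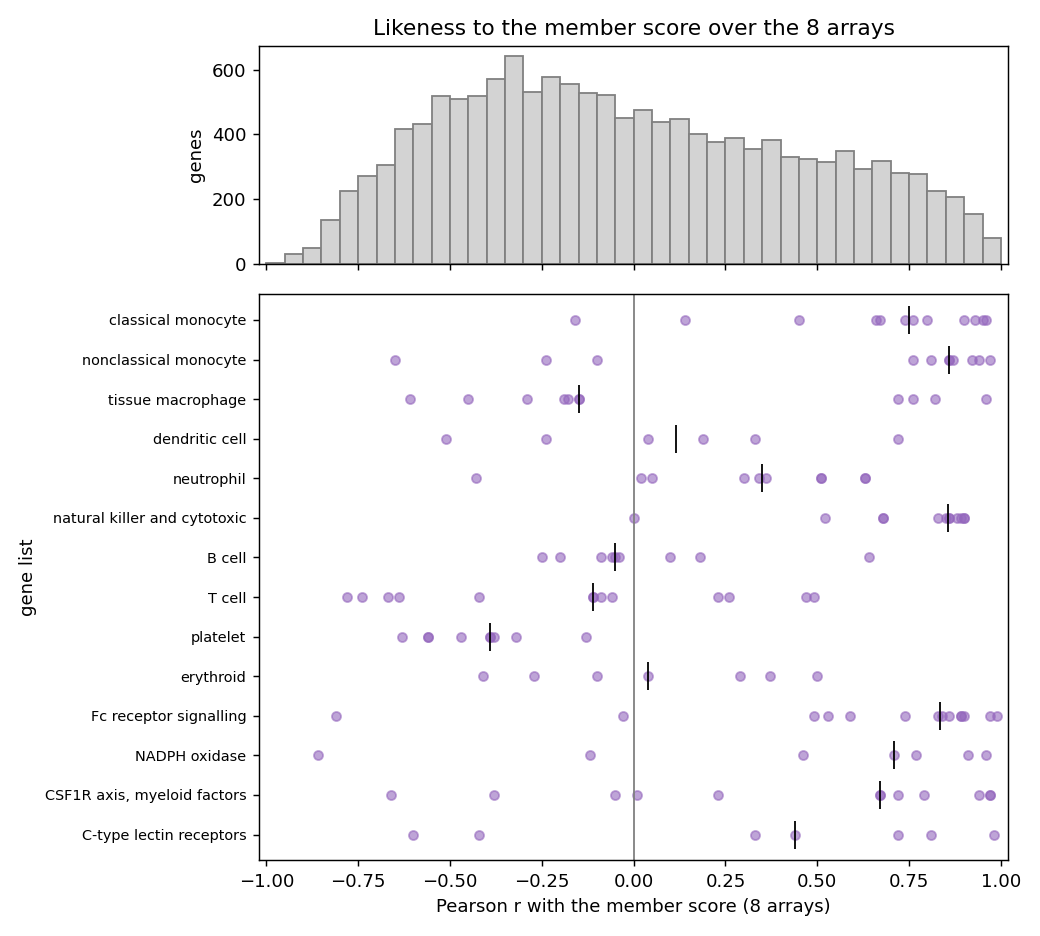
Pearson r with the mean member score over the 8 arrays, as a histogram of 14208 other genes (top, bars count genes) and for each gene of 14 lists (bottom, points are genes and the black mark is the list median). The medians of the nonclassical monocyte (0.856) and natural killer (0.853) lists lie to the right, and that of platelets (-0.393) to the left. Values without high-fat replicate 4 are not drawn, and there the r of the list mean was 0.55 for natural killer markers (0.91 with it) and 0.28 for platelets (-0.48 with it).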

How the data were processed

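Values of 8 Affymetrix arrays were used, 4 mulberry and 4 high-fat, labelled from 200 ng of total RNA. The deposited numbers were taken to be on a log2 scale, since they lie between 5.17 and 15.26 with none at 0. How they were summarised and normalized is not given in the sources used here, and the spread between arrays is too small for fold changes to be read from it, so differences are in SD units. With 4 arrays a diet, precision is low. No 2 arrays held identical values.

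After 57 control probe sets were left out, 31042 were fitted with limma 3.58.1 in R 4.3.3 (lmFit, eBayes, two-sided, Benjamini-Hochberg, threshold 0.05). Names came from the platform annotation, updated through RefSeq (GRCr8): 20826 probe sets named 1 gene (20758 matched by gene number), 436 several and 9780 none. For ranking and lists the brightest probe set of each of 14217 genes was kept. Correlations were computed in Python 3.11.15.

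The members, lists and tests were chosen with earlier results of these data known. Named are the members, the 10 genes most like the member score, the 5 most like Fcgr3a, and the 3 of largest difference in lists described; other genes are marked. The limma fit and the ranking were run on simulated data with planted shifts or patterns, as a check of the code. The planted shifts were larger than the member differences given here, so power for such differences was not measured. Results were recomputed with arrays centred on their medians, after quantile normalization, without the dimmer probe sets, with the array number as a replicate block, omission of single arrays, another variance model, hybridization controls (18 probe sets) as covariate, another unit, Spearman rho, within-diet deviations and 1 or all probe sets per gene.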

Additional observations from a re-analysis of the deposited data

Results flagged for a closer look

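Of 24 sets of 4 arrays examined, each member probe set and the member score in each diet, Fcgr3a in the high-fat arrays was the 1 set in which an array lay far from the others. High-fat replicate 4, at 7.215, was separated from the next array by 0.851 of the range of the 4 high-fat values. Chance alone gives such a gap in about 1 in 20 sets, and 24 were examined. The same array also stood above the others in sets below the limit, for example Cd68 (2.27 SD units, next high-fat array 0.31).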

How the results depend on the processing

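No member probe set passed the threshold under any alternative. Over all probe sets, 12 of 31042 passed after quantile normalization, and none passed in the other fits. With a replicate block 0 members were called, and 0 of all 31042 probe sets. In this balanced design a block cannot change a mean difference, so 11 again had a lower mean and the median difference stayed at -0.516. The SE did change, falling for example from 0.663 to 0.303 SD units for Cybb 1379344_at and from 0.705 to 0.348 for Clec4a3. It rose from 0.584 to 0.713 for Mpeg1 1369427_at and from 0.732 to 0.746 for Cd163. Deviations of arrays of the same number correlated at -0.0462, -0.0505, 0.246 and 0.163 for replicates 1 to 4. Those of different numbers ran from -0.199 to 0.147. The highest values were thus of the same number (3 and 4), and these values do not settle whether the arrays were paired. Leaving out 1 array at a time gave 6 to 11 lower means, and differences from -0.542 to 0.512 for Fcgr3a, -0.463 to 0.493 for Fcgr1a, -0.796 to 0.377 for Clec4a3, -0.839 to 0.268 for Clec4a1, -0.771 to 0.179 for Csf1r and -0.724 to 0.214 for Cd163. With the hybridization controls as covariate 5 were lower, the median difference turned to 0.00683, and Fcgr3a (0.184), Fcgr1a (0.419), Clec4a3 (0.197), Clec4a1 (0.251), Csf1r (0.00683) and Cd163 (0.0589) turned positive. Median centring turned Fcgr1a (0.0256), Cd163 (1.08) and Mpeg1 1369427_at (1.07) positive and left 3.07% of all probe sets with a lower mean. Centring shifts every value of an array by the same amount. The array medians ran from 6.5672268 to 6.5672866 with mulberry, against 6.567286 to 6.5673204 with high-fat diet. Such shifts are small but exceed the median SD of a probe set (5.31e-06). Why the medians differ was not tested. The median r between members was 0.71 to 0.945 over its alternatives, which include within-diet deviations without high-fat replicate 4, a setting added after the data were seen. The list of the 10 genes most like the members was less stable, sharing 3 genes with Spearman rho, 4 after quantile normalization, 7 after median centring and 2 to 7 without 1 array.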
